A study of Mus musculus with 15 samples.

Results

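The 10 genes described here belong to the stress response run by the transcription factors ATF4 and CHOP: Atf4, Atf5, Atf3, Ddit3 (which encodes CHOP), Nupr1, Cth, Asns, Chac1, Trib3 and Sesn2. They were chosen by gene symbol from the array's annotation, as 10 of the 18194 genes with a probe set of their own, and where a gene had several probe sets the one with the highest mean of the 15 arrays stands for it. All 10 were among the 15498 genes tested. They and the lists used below were chosen with earlier results of these data known. Shares over all genes set beside their counts therefore give a scale and are no independent test.

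The arrays measured RNA of mouse T helper cell cultures at day 4. The series compared T cells activated by plate-bound antibodies with T cells activated by their own antigen. All activated cultures started from naive CD4+ T cells of the 3A9 strain. Its transgenic T cell receptor recognises hen egg lysozyme (HEL), and cells bearing it had been sorted by their staining with the clonotypic antibody 1G12. In the groups called HA, HEL was presented by syngeneic wild type splenocytes irradiated with 30 Gy, at 1 µg/ml HEL in Th9 cultures and 2 µg/ml in Th1 and Th17 cultures. In the groups called PBAB, the stimulus was a plate coated with 1 µg/ml anti-CD3 plus 10 µg/ml anti-CD28, and no splenocytes are named. The stated T cell density was the same under HA and PBAB, and HA cultures held 125 splenocytes for every 25 T cells in addition. The kind of stimulus, the presence of splenocytes and the total cell density therefore cannot be told apart in PBAB minus HA. Polarization towards Th1 used 10 ng/ml IL-12 plus 10 µg/ml anti-IL-4. Polarization towards Th9 used 10 ng/ml IL-4 plus 1 ng/ml TGF-beta. The Th17 cocktail combined 3 ng/ml TGF-beta, 10 ng/ml IL-6 and 5 ng/ml IL-1alpha with 20 µg/ml anti-IFN-gamma and 10 µg/ml of each of anti-IL-4 and anti-IL-12. Each of the 6 activated groups had 2 arrays, labelled as biological replicates without naming animals or cultures, so p-values measure only the spread between these samples. Another treatment, labelled APC alone, had 1 array per lineage, and the labels do not say further what it contained. HEL dose and lineage cannot be told apart where Th9 cultures are set against the others under HA.

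ATF4 is the main effector of the integrated stress response, in which kinases that sense amino acid shortage, misfolded protein, double-stranded RNA or haem shortage phosphorylate the translation factor eIF2alpha. General protein synthesis then falls while translation of the Atf4 message rises, and ATF4 switches on genes for amino acid supply, tRNA charging and redox balance together with the factors CHOP, ATF3 and ATF5. ATF4 pairs with C/EBP family proteins on a composite DNA element, and prolonged signalling through CHOP is known for its link to cell death. In T cells the pathway is known from the response to amino acid depletion through the kinase GCN2.

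The promoters that hold the core of this composite element are shown first, because the element is what several of the 10 genes share in sequence. The motif searched was TGATGNAA, on both strands, in windows from 250 bases before to 50 bases after each annotated start in RefSeq's GRCm38.p6 table, in which 9 of the 10 genes had a window. It occurred in 5 of these 9 genes (Atf3, Nupr1, Asns, Chac1 and Trib3), against 1304 of all 32851 windows (3.97%) and 4.51% of all genes with a window. The windows of Atf4, Atf5, Ddit3 and Sesn2 did not contain these letters. A match is a description of the sequence and was not tested for binding. In the sequences below, written 5′ to 3′ on the strand of the gene, capitals mark the motif, which reads TTNCATCA where it lies on the opposite strand.
Atf3: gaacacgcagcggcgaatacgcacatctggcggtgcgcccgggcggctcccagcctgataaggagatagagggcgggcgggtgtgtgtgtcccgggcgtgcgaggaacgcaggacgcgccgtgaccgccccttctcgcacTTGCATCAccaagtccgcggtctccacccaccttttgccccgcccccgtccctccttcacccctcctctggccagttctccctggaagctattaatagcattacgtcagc
Nupr1: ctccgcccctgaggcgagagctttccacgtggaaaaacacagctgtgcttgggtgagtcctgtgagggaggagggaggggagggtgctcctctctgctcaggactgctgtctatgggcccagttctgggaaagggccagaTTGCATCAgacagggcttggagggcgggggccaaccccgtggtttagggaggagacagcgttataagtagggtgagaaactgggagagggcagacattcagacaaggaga
Asns: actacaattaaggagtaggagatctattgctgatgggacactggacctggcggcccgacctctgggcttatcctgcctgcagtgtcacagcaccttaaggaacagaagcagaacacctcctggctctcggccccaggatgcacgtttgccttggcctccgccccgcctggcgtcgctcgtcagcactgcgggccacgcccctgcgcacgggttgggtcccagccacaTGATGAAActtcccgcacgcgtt
Chac1: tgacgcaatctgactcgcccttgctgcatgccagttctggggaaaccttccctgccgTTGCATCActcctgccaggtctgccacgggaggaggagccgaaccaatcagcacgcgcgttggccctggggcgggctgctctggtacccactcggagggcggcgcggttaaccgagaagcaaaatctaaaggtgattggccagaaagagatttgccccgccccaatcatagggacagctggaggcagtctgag
Trib3: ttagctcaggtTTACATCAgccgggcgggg
The Atf3 stretch is the 250 bases upstream of the start (chr1:191183334-191183583, minus strand), with the motif 110 to 103 bases before the start. The Nupr1 stretch (chr7:126625471-126625720, minus strand) has it at the same distance, 110 to 103 bases before the start. In Asns (chr6:7693210-7693459, minus strand) it lies on the strand of the gene, 23 to 16 bases before the start. In Chac1 (chr2:119350992-119351241, plus strand) it lies 193 to 186 bases before the start. The Trib3 stretch (chr2:152344028-152344057, minus strand) is 30 bases long, since its motif lies 15 to 22 bases after the start. Atf3, Nupr1 and Chac1 share the same 8 letters, TGATGCAA on the motif's strand, while Asns has TGATGAAA and Trib3 TGATGTAA.

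Before the results, the 3 arrays of APC alone need separate mention. Their mean log2 level over 10 T cell markers was 6.69 to 7.91, against 10.66 to 11.26 under HA and 10.91 to 11.13 under PBAB, and their mean over 10 macrophage and monocyte markers was 9.49 to 9.72, against 4.91 to 6.57 and 4.88 to 5.41. Their source label is CD4+ T cells, whose mean marker level was lower there than in any activated array. The interquartile range of their values was 2.02 to 2.09, against 3.02 to 3.48 over the activated arrays. Their 3′ minus 5′ log2 signal of the beta-actin control probe sets was 0.74 to 0.99. It was 0.05 to 0.11 under HA and 0.12 to 0.28 under PBAB. The control BioB read 13.71 to 14.01 in APC alone, and at most 10.86 under HA and 11.05 under PBAB. The 18S RNA control read 8.60 to 8.82 in APC alone, and at least 9.27 under HA and 9.98 under PBAB. The part of these differences in the comparisons with APC alone was not tested. All 10 T cell markers exceeded the filter threshold in every array, those of APC alone included.

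Plate-bound antibody activation went with higher levels of all 10 genes. In the contrast of PBAB minus HA averaged over the 3 lineages, 6 arrays against 6, all 10 were higher at a limma adjusted p under 0.05, which is the meaning of "called" below, where 13.2% of the genes tested were called higher. Their median log2 difference was 2.22, beside a median of 0.02 over all genes tested. Since the 10 genes were chosen with earlier results known, the 13.2% does not test them independently. The log2 differences ran from 0.84 ± 0.10 (SE) for Sesn2 to 4.28 ± 0.22 for Nupr1, leaving Cth aside. The HA level of Cth lay around the filter threshold, and its averaged difference was 4.19 with values under the threshold set to it. Within lineages, 7 of the 10 were called higher in Th1 cultures (background 5.22%), 10 in Th9 cultures (7.39%) and 9 in Th17 cultures (6.66%). With the replicate number as a block, 9, 10 and 10 were called, against backgrounds of 10.8%, 13.8% and 12.5%. For 9 of the 10 genes every one of the 6 PBAB arrays lay above every one of the 6 HA arrays, as it did for 4.65% of the genes tested. Trib3 was the exception.

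**Figure D1:**
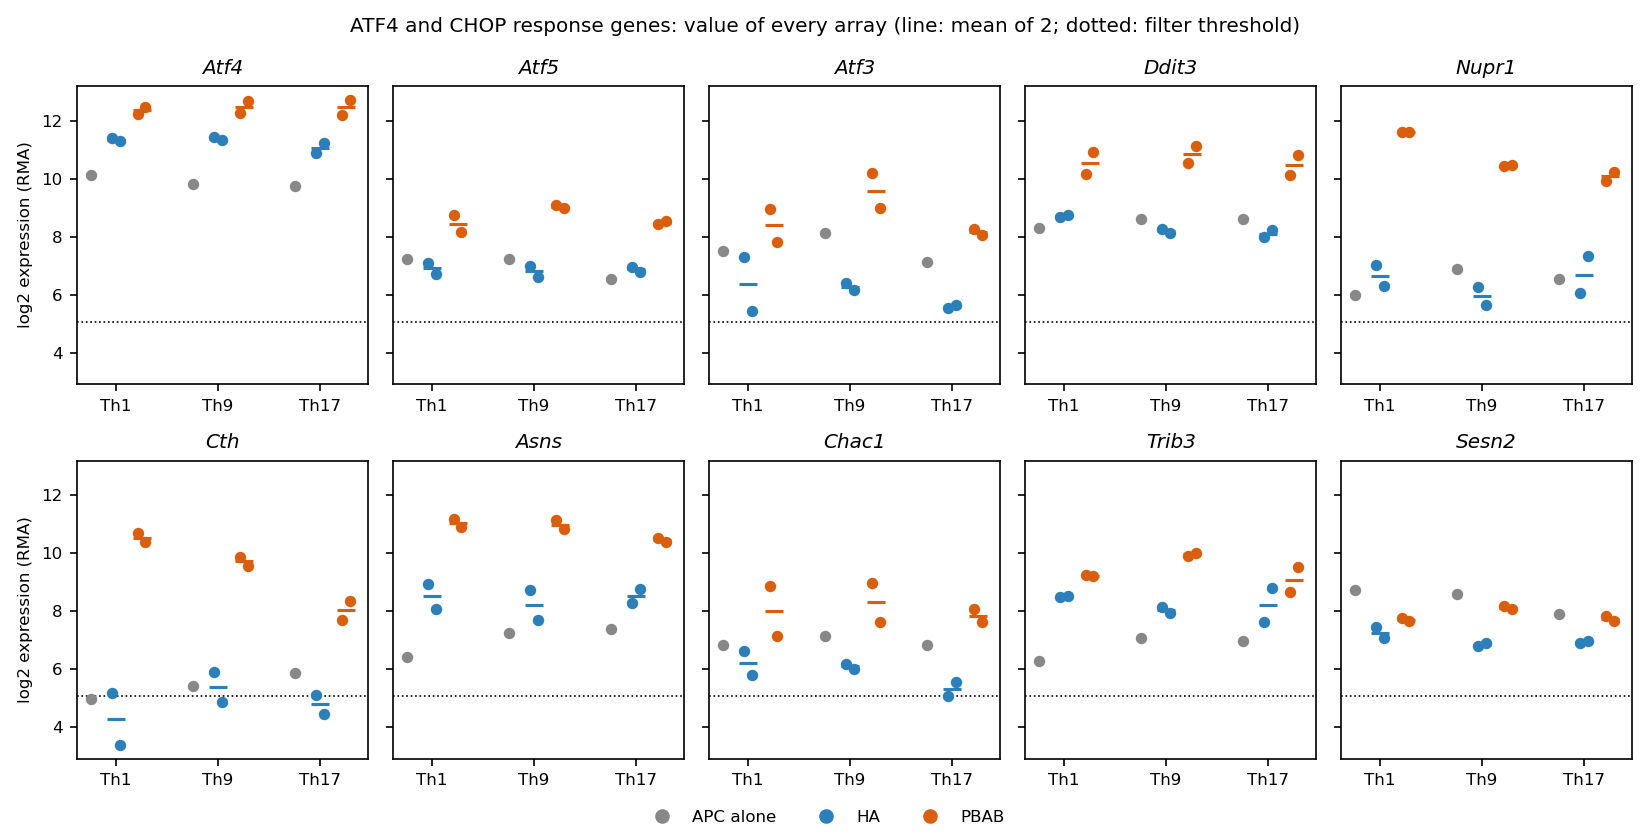
Log2 expression (RMA values as deposited, vertical axis) of each gene in every array, by lineage (horizontal axis), for APC alone (grey), HA (blue) and PBAB (orange), where short lines are means of 2 arrays and the dotted line is the filter threshold of 5.07. PBAB points lie above the HA points of the same lineage in every panel except the Th17 cultures of Trib3, and the Cth points under HA lie around the threshold.

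Some measures of cell content and RNA moved with the activation. Macrophage and monocyte markers above the filter threshold numbered 5 to 9 of 10 per HA array and 3 to 5 per PBAB array, and in the averaged contrast 5 of the 10 fell and 1 rose, with a median of -0.52. This differed by lineage. In Th1 cultures 1 of the 10 rose and none fell by limma (median 0.13), in Th9 cultures 1 rose and 2 fell (-0.80), and in Th17 cultures none rose and 5 fell (-1.11). Of all genes, 5.22% were called higher and 9.40% lower in Th1 cultures. The shares were 7.39% higher in Th9 cultures, and 6.66% higher and 10.4% lower in Th17 cultures. No share called lower is given for Th9 cultures, so the 2 markers that fell there lack this scale. Of 2 NK cell markers tested, 1 fell in the averaged contrast, and of the 10 T cell markers 2 rose and 3 fell, with a median of -0.13. None of 7 B cell markers was called by limma in that contrast, where 13.2% of all genes were called higher and 17.3% lower. The 3′ minus 5′ log2 signal of the beta-actin control probe sets was 0.05 to 0.11 in HA arrays and 0.12 to 0.28 in PBAB arrays, with no overlap. The part of these in the results on the 10 genes was not tested. In RNA of whole cultures, fewer cells of a type and less RNA per cell cannot be told apart.

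The transcription factors come first. Atf4 encodes the factor at the head of the response. Atf4 read 11.39 and 11.31 in the HA arrays of Th1 cultures, against 12.24 and 12.48 under PBAB. In Th9 cultures Atf4 was at 11.44 and 11.32 under HA and at 12.28 and 12.67 under PBAB. In Th17 cultures Atf4 was at 10.87 and 11.25 under HA and at 12.20 and 12.73 under PBAB. The lowest PBAB array lay 0.76 above the highest HA array. The averaged log2 difference was 1.17 ± 0.13 (SE), a 2.25-fold change (adjusted p = 7.82e-05), with 1.01 in Th1, 1.09 in Th9 and 1.40 in Th17 cultures, all called. The Th1 call was lost without the second HA array (adjusted p = 0.0763) or the second PBAB array (0.0927) of Th1 cultures. The Th9 call was lost without the second HA array (0.0593) or the second PBAB array (0.074) of Th9 cultures. Another Atf4 probe set gave an averaged difference of 1.35, and a dim one, above the filter threshold in 3 of 15 arrays, gave 0.32.

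Ddit3 encodes CHOP, a C/EBP family factor that ATF4 induces. Its HA arrays read 8.69 and 8.76 in Th1 cultures, and the PBAB arrays 10.16 and 10.91. In Th9 cultures Ddit3 was at 8.26 and 8.14 under HA and at 10.55 and 11.13 under PBAB. In Th17 cultures Ddit3 was at 7.99 and 8.23 under HA and at 10.12 and 10.82 under PBAB. The groups were separated by 1.35 between the highest HA and the lowest PBAB array. The averaged difference was 2.27 ± 0.17 on the log2 scale, 4.82-fold (adjusted p = 9.39e-06), and it was called in Th1 (1.80), Th9 (2.64) and Th17 cultures (2.36) and without any 1 array. Its other probe set gave 0.82 in the same direction.

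Atf3, a stress-induced factor downstream of ATF4, varied more between replicates, with a residual SD at the 98.9th percentile of all genes. Its Th1 arrays were at 7.29 and 5.44 under HA and at 8.94 and 7.83 under PBAB. In Th9 cultures Atf3 was at 6.39 and 6.17 under HA and at 10.18 and 8.97 under PBAB. In Th17 cultures Atf3 was at 5.53 and 5.63 under HA and at 8.28 and 8.06 under PBAB. Th9 PBAB arrays held the highest values, and the replicates of Th1 HA and of Th1 and Th9 PBAB cultures each differed by more than 1 log2 unit. The averaged difference was 2.63 ± 0.32, 6.21-fold (adjusted p = 0.000168), with 2.02 in Th1 (adjusted p = 0.0367), 3.30 in Th9 and 2.59 in Th17 cultures. The Th1 call was lost without the second Th1 HA array (difference 1.10, adjusted p = 0.25), the first Th1 PBAB array (1.47, 0.202) or any 1 of the 4 activated Th17 arrays (adjusted p from 0.0508 to 0.0547), and when values under the filter threshold were set to it before the fit (0.118). The last setting also ended the Th17 call (0.0531). No Atf3 value was under the threshold, so both differences kept their size and only the p-values moved. The Th17 call was lost too without the second Th17 HA array or either Th17 PBAB array, at adjusted p between 0.0524 and 0.0655.

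Atf5, a relative of ATF4 that is translated under the same kind of stress, had tighter values. Its 6 HA arrays ran from 6.61 to 7.09 with a median of 6.88, and its 6 PBAB arrays from 8.16 to 9.08 with a median of 8.64. The ranges were 1.06 apart. The averaged difference was 1.79 ± 0.13, 3.45-fold (adjusted p = 7.73e-06), with 1.54 in Th1, 2.22 in Th9 and 1.60 in Th17 cultures, all called with every 1 array left out.

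Nupr1, a small chromatin-associated stress protein, had the largest change among the regulators. Its Th1 arrays were at 7.01 and 6.31 under HA and at 11.61 and 11.60 under PBAB. In Th9 cultures Nupr1 was at 6.26 and 5.64 under HA and at 10.44 and 10.46 under PBAB. In Th17 cultures Nupr1 was at 6.06 and 7.32 under HA and at 9.93 and 10.24 under PBAB. All PBAB arrays were high, Th1 above Th9 and Th9 above Th17, without overlap between the lineages. The averaged difference was 4.28 ± 0.22 (adjusted p = 9.07e-07), 19.4-fold. Its log2 differences were 4.94 in Th1, 4.50 in Th9 and 3.40 in Th17 cultures, and its other probe set gave an average of 3.65.

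Trib3 encodes a pseudokinase that ATF4 and CHOP induce and that dampens their activity. Its Th1 arrays were at 8.49 and 8.53 under HA and at 9.26 and 9.20 under PBAB. In Th9 cultures Trib3 was at 8.17 and 7.96 under HA and at 9.92 and 10.02 under PBAB. In Th17 cultures Trib3 was at 7.63 and 8.82 under HA and at 8.65 and 9.52 under PBAB, so that the ranges overlapped. The averaged difference of 1.16 ± 0.20 was called (adjusted p = 0.00146), as was the Th9 difference of 1.91 (adjusted p = 0.00592). The Th1 difference of 0.72 (95% interval -0.06 to 1.51, adjusted p = 0.224) and the Th17 difference of 0.86 (0.08 to 1.65, adjusted p = 0.134) did not pass. With the replicate number as a block the Th17 difference passed (adjusted p = 0.0487), as it did with the mean of both probe sets (0.0279) and without the second Th17 HA array (1.46, adjusted p = 0.0222). The Trib3 probe set used is of a type that may cross-hybridise, and the other probe set gave an average of 1.04. Of the same type are the other probe sets of Nupr1 and Asns and the Atf4 one that gave 1.35.

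The enzymes of amino acid metabolism follow. Cth encodes cystathionine gamma-lyase, which makes cysteine by transsulfuration. Its HA arrays read 5.20 and 3.39 in Th1, and the PBAB arrays 10.69 and 10.38. In Th9 cultures Cth was at 5.92 and 4.86 under HA and at 9.89 and 9.55 under PBAB. In Th17 cultures Cth was at 5.11 and 4.47 under HA and at 7.70 and 8.37 under PBAB. Cth was near or under the filter threshold of 5.07 in HA arrays and clearly above it in all 6 PBAB arrays. The HA means of Th1 (4.29) and Th17 cultures (4.79) were under that threshold, where a signal is not told from background, and 1 HA array of each lineage fell below it. The differences are therefore given first with each value under the threshold set to it. On this scale they were 5.40 log2 units in Th1 (42.2-fold), 4.23 in Th9 (18.7-fold) and 2.94 in Th17 cultures (7.67-fold). The fit on the values as deposited gave 6.24, 4.33 and 3.24, each ± 0.53, and all 3 were called in both fits.

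Asns encodes asparagine synthetase. In Th1 cultures Asns was at 8.96 and 8.07 under HA and at 11.20 and 10.92 under PBAB. In Th9 cultures Asns was at 8.74 and 7.71 under HA and at 11.13 and 10.85 under PBAB. In Th17 cultures Asns was at 8.29 and 8.77 under HA and at 10.52 and 10.39 under PBAB. All 6 PBAB arrays exceeded 10, and all 6 HA arrays lay under 9. The averaged difference was 2.41 ± 0.20, 5.32-fold (adjusted p = 1.81e-05), with 2.54 in Th1, 2.77 in Th9 and 1.92 in Th17 cultures, all called, and the other probe set gave an average of 2.50.

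Chac1 encodes an enzyme that degrades glutathione and is a target of ATF4 and CHOP. In Th1 cultures Chac1 was at 6.64 and 5.80 under HA and at 8.87 and 7.14 under PBAB. In Th9 cultures Chac1 was at 6.20 and 6.01 under HA and at 8.97 and 7.65 under PBAB. In Th17 cultures Chac1 was at 5.08 and 5.58 under HA and at 8.08 and 7.63 under PBAB. The second PBAB array was the lower one in every lineage, and its residual SD was at the 98.8th percentile of all genes. The averaged difference of 2.17 ± 0.32, 4.50-fold, was called (adjusted p = 0.000495), as were those in Th9 (2.20, adjusted p = 0.0237) and Th17 cultures (2.52, adjusted p = 0.0106). The Th1 difference of 1.78 did not pass (95% interval 0.56 to 3.01, adjusted p = 0.0557), but did with the replicate number as a block (0.00726), after a further quantile normalization (0.0327), with array weights (0.0497), without the second Th1 PBAB array (2.65, adjusted p = 0.0155) or without either Th9 PBAB array (0.0407). The Th9 call was lost without either Th9 HA array (0.078 and 0.116) or the first Th9 PBAB array (0.173), and the Th17 call without the first Th17 HA array (0.0616) or the first Th17 PBAB array (0.0754). Setting values under the threshold to it ended the Th9 (0.0915) and Th17 calls (0.0534). No Chac1 value was under the threshold, so both differences kept their size and only the p-values moved.

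Sesn2 encodes sestrin 2, a leucine sensor that restrains the growth kinase complex mTORC1. Its 6 HA arrays ran from 6.82 to 7.45 with a median of 6.94, and its 6 PBAB arrays from 7.65 to 8.19 with a median of 7.81. The ranges did not overlap, and the replicate spread was at the 16.7th percentile of all genes. The averaged difference was 0.84 ± 0.10, 1.80-fold (adjusted p = 0.000112). It was 1.27 in Th9 (adjusted p = 0.00101) and 0.81 in Th17 cultures (adjusted p = 0.00848), both called, the latter lost without the first Th17 PBAB array (0.71, adjusted p = 0.0661). In Th1 cultures the difference of 0.45 (95% interval 0.08 to 0.83) did not pass (adjusted p = 0.11), but did with the replicate number as a block (0.0367) and after a further quantile normalization (0.0365).

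**Figure D2:**
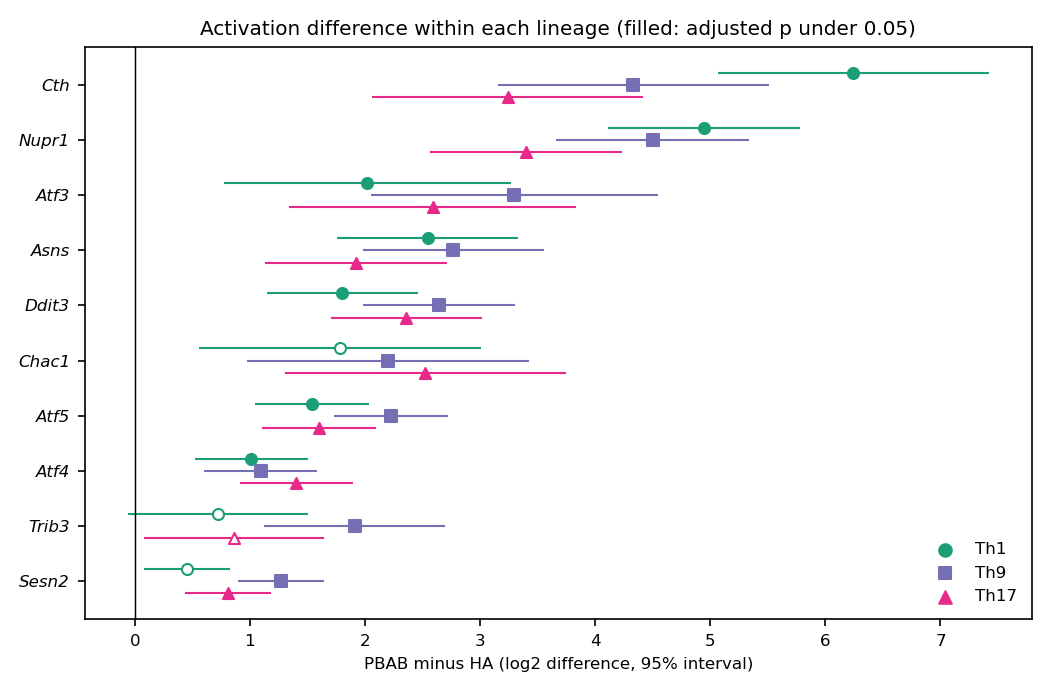
Log2 difference of PBAB minus HA (horizontal axis) with its 95% interval for each gene (rows, ordered by the averaged difference) in Th1 (circles), Th9 (squares) and Th17 cultures (triangles), where filled symbols have a limma adjusted p under 0.05. All 30 estimates lie above 0, and those of Cth rest on HA levels around the filter threshold, so that their size depends on values not told from background.

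Arrays of replicate number 1 and 2 differed in opposite directions for different genes. In PBAB cultures of all 3 lineages the second array was higher than the first for Ddit3, by 0.58 to 0.75, and for Atf4, by 0.24 to 0.53. It was lower for Chac1, by 0.46 to 1.73, and for Atf3, by 0.22 to 1.21. Asns and Sesn2 were also lower in the second PBAB array of every lineage, and the remaining genes went both ways. Array controls differed by replicate number too. Over the activated arrays, BioB read at most 9.55 in those of number 1 and at least 10.5 in those of number 2. The 18S RNA control was lower in the second array of every activated group. The part of this in the replicate differences of the genes was not tested.

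Whether the activation difference itself depended on the lineage was tested next. By limma's F test over the 3 lineages none of the 10 genes was called, where 4.19% of all genes were, and 3 genes had an unadjusted p under 0.05. These were Cth (adjusted p = 0.10), Sesn2 (adjusted p = 0.176) and Nupr1 (adjusted p = 0.256). With the replicate number as a block, 2 of the 10 were called, where 14.9% of all genes were, Cth (adjusted p = 0.0164) and Sesn2 (adjusted p = 0.0472). Between pairs of lineages, the Cth activation difference in Th17 minus that in Th1 cultures was -3.00 (adjusted p = 0.0578 without and 0.00911 with the block, against backgrounds of 1.38% and 5.19% lower), which also passed with array weights (0.0489) and without the first Th1 HA array (-3.91, adjusted p = 0.0104). Its size rests on the HA means of Th1 and Th17 cultures, both under the filter threshold, and was -2.46 (adjusted p = 0.0481) with values under the threshold set to it. In the same comparison 4 of the 10 macrophage and monocyte markers were lower and none was higher by limma, with a median of -1.67, and their part in the result was not tested. The Sesn2 difference was larger in Th9 than in Th1 cultures by 0.82 (adjusted p = 0.175 without and 0.0458 with the block, backgrounds 0.942% and 3.41% higher).

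The lineages were also compared under each activation. Under HA, none of the 30 comparisons of a gene between a pair of lineages was called by limma, and 1 had an unadjusted p under 0.05. The background was 5.34% in Th9 minus Th1, 6.90% in Th17 minus Th1 and 4.77% in Th17 minus Th9. Under PBAB, 2 of 30 were called, both lower in Th17 than in Th1 cultures, where 3.13% of all genes were called lower. These were Cth, at a log2 difference of -2.51 ± 0.53 (adjusted p = 0.018), and Nupr1, at -1.52 ± 0.38 (adjusted p = 0.0375). The Cth call was lost without any 1 of the 4 Th1 and Th17 PBAB arrays (adjusted p from 0.0579 to 0.125). The Nupr1 call was lost without any 1 of the 6 PBAB arrays (0.0539 to 0.187) or with values under the filter threshold set to it (0.115). No Nupr1 value was under that threshold, and its difference stayed at -1.52. None was called in Th9 minus Th1 by limma, where 2.16% of all genes were and 3 of the 10 had an unadjusted p under 0.05. Of the 10 macrophage and monocyte markers, 5 were higher in Th17 than in Th1 cultures under HA (median 1.29) and 1 was lower under PBAB (median -0.10). With the replicate number as a block 5 comparisons were called, the added ones lower in Th17 than in Th9 cultures, where 3.74% of all genes were called lower without it and 9.08% with it. In Th17 minus Th1 the share with the block was 7.74%. The added ones were Cth (-1.69, adjusted p = 0.0995 without and 0.0195 with the block), Atf3 (-1.41, 0.207 and 0.0302) and Atf5 (-0.55, 0.221 and 0.0455). Without the block, the Cth difference between Th17 and Th9 cultures also passed when either Th1 HA array was left out (adjusted p = 0.0257) and with values under the threshold set to it (0.0374).

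Over the 9 groups, the 3 PBAB groups had the highest means for every gene except Sesn2. For Atf3 the Th17 PBAB mean (8.17) was only just above the Th9 array of APC alone (8.14), and their values overlapped. Th9 PBAB cultures came first for Atf4, Atf5, Atf3, Ddit3, Chac1 and Trib3, and Th1 PBAB cultures for Nupr1, Cth and Asns. The arrays of the first and the next group overlapped for Atf4, Ddit3, Chac1 and Asns. For Atf4 the order was Th9, Th17 and Th1 PBAB, whose arrays overlapped, then Th9, Th1 and Th17 HA, then the arrays of APC alone. Sesn2 was highest in the APC alone arrays of Th1 (8.74) and Th9 (8.61), while that of Th17 (7.90) lay below both Th9 PBAB arrays (8.19 and 8.07).

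Against the arrays labelled APC alone, which had 1 array per lineage, the genes fell into several patterns in the deposited values. In HA minus APC alone, averaged over lineages, 3 genes were called higher (Atf4 at 1.37, Asns at 1.40 and Trib3 at 1.47 on the log2 scale) and 3 lower (Atf3 at -1.52, Chac1 at -1.05 and Sesn2 at -1.39), where 49.5% of all genes were called higher and 41.2% lower. Atf5 (-0.14), Ddit3 (-0.17), Nupr1 (-0.04) and Cth (-0.60) did not pass. In PBAB minus APC alone 9 genes were called higher, from 1.11 for Atf3 to 4.24 for Nupr1, and Sesn2 lower at -0.55, against backgrounds of 48.7% and 41.1%. Both comparisons use the same 3 arrays of APC alone. The arrays of APC alone read 9.73 to 10.11 for Atf4 and 6.43 to 7.38 for Asns, under every HA array of the same gene. For Atf3 they read 7.13 to 8.14, within or above the HA range of 5.44 to 7.29.

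These comparisons depended on the scaling. The median of all genes in HA minus APC alone was 0.36 as deposited, 0.80 with each array centred on its median and 0.01 after a further quantile normalization. The genes called higher and lower were then 3 and 2 with centring and 2 and 6 after quantile normalization. Atf4 turned from 1.37 to -0.52 (adjusted p = 0.0087) after quantile normalization, and Asns and Trib3 stayed higher in all 3 scalings. In PBAB minus APC alone, 9 genes were called higher and none lower by limma with centring, where Sesn2 was at -0.13, and 6 higher and 1 lower after quantile normalization, where Atf3 was at -0.09, Ddit3 at 0.27 and Chac1 at 0.49 without passing. Of the calls against APC alone, Chac1 was lost in HA minus APC alone without the second Th1 HA, the first Th17 HA, or the Th9 or Th17 array of APC alone (adjusted p from 0.0515 to 0.125). In PBAB minus APC alone, Chac1 was lost without the Th1 or the Th9 array of APC alone (0.0505 and 0.0514), Atf3 without the Th9 one (0.0868) and Sesn2 without the Th1 one (-0.31, 0.0656). Without the first Th1 HA array, Cth was called lower in HA minus APC alone (-0.90, adjusted p = 0.0101), where it was at -0.22 with values under the threshold set to it. The last setting ended the Chac1 calls in HA (adjusted p = 0.0723) and PBAB minus APC alone (0.0608), and the Atf3 call in PBAB minus APC alone (0.0655). Neither gene had a value under the threshold, and these differences kept their size.

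**Figure D3:**
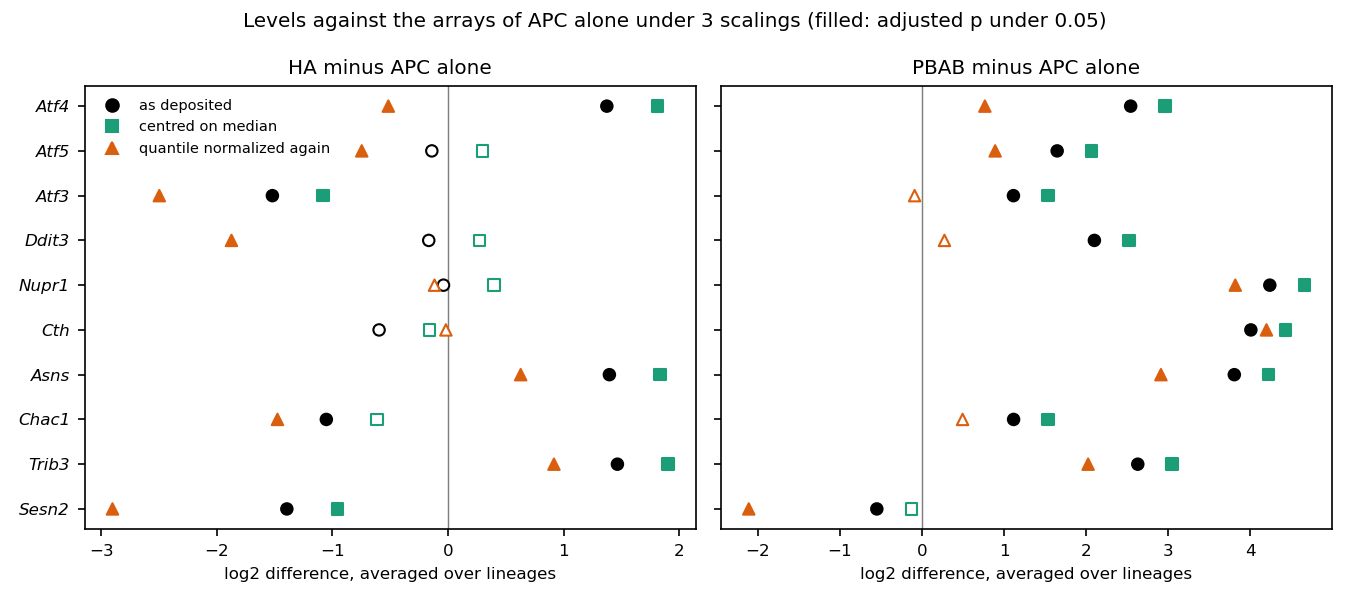
Log2 difference from the arrays of APC alone, averaged over lineages (horizontal axis), of each gene (rows) under HA (left) and PBAB (right), for values as deposited (circles), centred on each array's median (squares) and quantile normalized again (triangles), where filled symbols have a limma adjusted p under 0.05. Atf4 under HA lies at 1.37, 1.81 and -0.52 in the 3 scalings, while Nupr1 and Cth under PBAB stay above 3 in all of them.

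The rest of the pathway was described with 6 lists of 92 genes, of which 88 were on the array and tested. The lists are set beside the same contrast, PBAB minus HA averaged over lineages, in which 13.2% of all genes were called higher and 17.3% lower, with a median of 0.02. With the replicate number as a block these shares were 18.9% and 23.3%. The lists too were chosen with earlier results of these data known. Of 7 kinases and phosphatases that set eIF2alpha phosphorylation, 2 rose and 3 fell, with a median of -0.27 (3 and 4 with the block). Eif2ak4, which encodes the amino acid sensing kinase GCN2, rose by 1.01 ± 0.12. Ppp1r15a, which encodes the stress-induced phosphatase subunit GADD34, rose by 1.42 ± 0.20. Ppp1ca, a catalytic phosphatase subunit, fell by 0.67 on the log2 scale. Of 11 factors that pair with ATF4 or belong to its family, 2 rose, Cebpg by 0.91 ± 0.11 and Batf3 by 0.89 ± 0.23, and none fell by limma, with a median of 0.08. Cebpd was at -0.58 (adjusted p = 0.0603). With the block 4 rose, Atf2 and Nfe2l2 added, and 3 fell, Batf, Cebpd and Jun.

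The target lists moved mostly upward. Of 18 aminoacyl-tRNA synthetases, which charge tRNAs with amino acids, 11 rose and 1 fell, with a median of 0.61, led by Cars at 1.38, Sars at 1.01 and Nars at 0.74 (12 and 2 with the block). In Th1 cultures 6 rose, in Th9 cultures 7, and in Th17 cultures 2 rose and 1 fell, where 5.22%, 7.39% and 6.66% of all genes were called higher and 10.4% lower in Th17. Of 18 genes of amino acid transport and serine synthesis, 11 rose and none fell, with a median of 0.85. Among them were Slc7a3, a transporter of cationic amino acids, at 3.00 ± 0.16, Slc6a9, a glycine transporter, at 1.58 and Gpt2, an alanine aminotransferase, at 1.20. By lineage 10 of this list rose in Th1, 7 in Th9 and 6 in Th17 cultures. Of 18 other targets of ATF4 and CHOP, 11 rose and none fell, with a median of 1.01. The 3 with the smallest p were Gadd45a, a growth arrest gene, at 1.66, Klhl24 at 1.26 and Bbc3, which encodes the death protein PUMA, at 1.54. By lineage 6 of them rose in Th1, 7 in Th9 and 10 in Th17 cultures, and with the block 1 of the 18 fell in the averaged contrast, Bcl2l11. The differences between lineages in these counts were not tested. The composite motif occurred in 5 of 12 synthetase genes with a window (41.7%), 3 of 15 transport and serine genes (20%) and 4 of 14 other targets (28.6%). It occurred in 1 of 10 partner factors with a window (10%) and in 0 of 6 kinases and phosphatases.

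Targets of ATF6 and XBP1, the other arms of the response to misfolded protein in the endoplasmic reticulum, made up the last list. None of 16 rose and 6 fell by limma in the averaged contrast, with a median of -0.09, and the motif occurred in none of the 14 with a window. Dnajb11, a chaperone partner, was at -0.84 ± 0.08, Sdf2l1, a chaperone complex member, at -1.12 ± 0.12 and Creld2, a protein of the endoplasmic reticulum, at -0.72 ± 0.14. In Th1 cultures 2 of the 16 rose and 3 fell, where 9.40% of all genes were called lower. In Th9 cultures none rose and 5 fell by limma, with a median of -0.56. No share of all genes called lower is given for Th9 cultures, so that count lacks this scale. In Th17 cultures none rose and 3 fell by limma, where 10.4% of all genes were called lower. With the block, 1 of the 16 rose in the averaged contrast, the chaperone gene Hspa5.

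**Figure D4:**
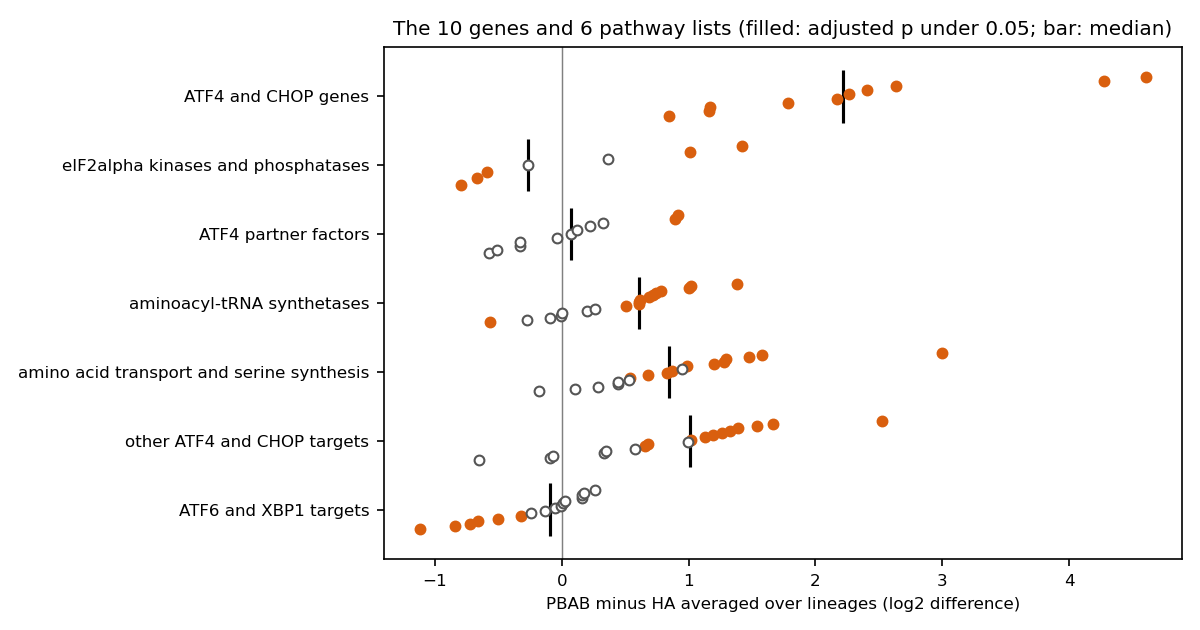
Log2 difference of PBAB minus HA averaged over lineages (horizontal axis) for the 10 genes and for each tested gene of the 6 pathway lists (rows), where filled points have a limma adjusted p under 0.05 and vertical bars are medians. Points are staggered vertically only for legibility. All 10 genes lie above 0, from 0.84 for Sesn2, and the called ATF6 and XBP1 targets lie under 0.

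Genes outside the 10 with the most similar pattern were sought by the mean absolute difference of the 6 activated group means, each gene centred on its own mean. Atf4 was nearest to Tmem258 (0.04 log2 units), Sesn2 to Cept1 (0.06) and Trib3 to Map1lc3a (0.08). Ddit3 and Chac1 had the same nearest gene, C1qtnf12 (0.11 and 0.16), and were nearest to each other among the 10 (0.14). Asns was nearest to Snhg6 (0.15), Atf5 to Rab11fip1 (0.16) and Atf3 to the amino acid transporter gene Slc7a3 (0.26). The least closely matched were Nupr1, nearest to Rab34 (0.41), and Cth, nearest to Cd83 (0.57), with its HA means around the threshold. Slc7a3 differed between PBAB and HA by 2.85 in Th1, 3.59 in Th9 and 2.55 in Th17 cultures.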

How the data were processed

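Expression was measured on 15 mouse arrays, 2 per activated group and 1 per lineage of APC alone, and the number of arrays limits the precision. The deposited log2 values for 45101 probe sets were produced by the authors with RMA, in a version not given in the sources used here, per the submitters' processing notes. Base 2 was inferred from how far the values range. No further normalization was applied, although the deposited columns do not share the same quantiles. The platform annotation gave 34958 probe sets 1 symbol and 932 several, and left 9211 unnamed here. Only those with 1 symbol were used. Testing was limited to genes above 5.07, the table's 40th percentile, in at least 2 arrays. No detection calls were used.

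In R 4.3.3, limma 3.58.1 estimated a mean for each of the 9 groups from all 15 arrays together, with 6 residual and 4.38 prior degrees of freedom, and p-values were Benjamini-Hochberg adjusted over all 15498 genes of each contrast. The scripts were tested on simulated data. Same-numbered arrays deviated together in all 15 pairs of activated groups (correlations 0.30 to 0.71), so the replicate number was taken to pair the samples. The fit with it as a block used the 12 activated arrays.

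The 10 genes and all lists were chosen with earlier results of these data known. Named list genes are the up to 3 with the smallest p in the averaged contrast, and the gene of most similar pattern is the nearest 1. Alternatives were other probe sets, no filter, centring, quantile normalization, array weights, the activated arrays alone, the block, values under the threshold set to it (added after the data were seen) and leaving out each array. Promoters came from RefSeq's GRCm38.p6 table.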

Additional observations from a re-analysis of the deposited data

How the results depend on the processing

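The averaged difference of PBAB minus HA was called for 10 of 10 genes under all 8 alternative settings and with each of the 15 arrays left out. None of the 40 PBAB minus HA differences changed sign. Leaving out 1 array at a time gave 5 to 8 called genes in Th1, 8 to 10 in Th9 and 6 to 9 in Th17 cultures, 0 to 1 called comparisons between lineages under HA and 0 to 3 under PBAB, 0 to 1 genes in the F test, 5 to 7 in HA minus APC alone and 8 to 10 in PBAB minus APC alone. With the replicate number as a block, 5 comparisons between lineages under PBAB and 2 genes in the F test were called, against 2 and 0 without it. The paired analysis gave 9, 10 and 10 called genes in Th1, Th9 and Th17 cultures, and of the calls on the 10 genes it changed none other than those given in the report. Setting values under the filter threshold to it, added after the data were seen, gave 6, 9 and 7. Among the 10 genes only Cth had values under it, so the other differences within lineages kept their size. Quantile normalization turned Atf4 in HA minus APC alone to -0.52 and Atf3 in PBAB minus APC alone to -0.090. Centring turned Atf5 to 0.30, Ddit3 to 0.27 and Nupr1 to 0.40 in HA minus APC alone, none of them called, and leaving out 1 array ran from -0.40 to 0.41 for Nupr1 and from -0.38 to 0.0061 for Atf5. The cause was not tested. The mean of all probe sets ended the Atf4 call in Th9 cultures (0.80, adjusted p = 0.0518) and called Ddit3 in HA minus APC alone (-0.37, adjusted p = 0.0302). The list counts, recomputed under the same settings as an addition made after the data were seen, ran from 8 to 12 synthetases, 10 to 15 transport and serine genes and 10 to 14 other targets called higher, from 1 to 4 partner factors called higher and 0 to 3 lower, from 2 to 3 kinases and phosphatases called higher and 3 to 4 lower, and from 4 to 6 ATF6 and XBP1 targets called lower with 0 to 1 higher. With no detection calls, differences of genes near the filter threshold, such as Cth under HA, are limited by the signal over background.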
